A study of Mus musculus with 8 samples.

Results

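Collagens are the triple-helical proteins that form most of the extracellular matrix around heart cells. Every protein-coding gene whose mouse symbol is Col, a number, a and a number was taken from a table of gene counts, which gave 44 collagen genes among the 54752 genes listed. They were grouped by the structure their proteins build: 11 fibrillar, 6 basement membrane, 6 beaded filament, 9 fibril-associated, 2 multiplexin, 3 short-chain network, 4 transmembrane, 1 anchoring fibril and 2 other genes. Each collagen molecule is made of 3 alpha chains, and every gene here encodes 1 kind of chain. Counts came from RNA sequencing of mouse heart muscle cells in 4 groups of 2 libraries each.

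All mice carried 2 floxed alleles of Carm1 (Carm1fl/fl), which encodes an arginine methyltransferase. Control mice had received the virus AAV9-GFP, and the knockout (KO) mice AAV9-Cre, whose recombinase deletes the floxed part of the gene. Both kinds were studied at 1w and at 3w, which are here the ages given in the labels. By the labels the mice were injected at postnatal day 1 or 2 in the 1w groups and at day 3 or 4 in the 3w groups. These days run on with the replicate number, so what they mean is uncertain. The hearts were mosaic, with infected beside uninfected muscle cells. Cells were released on a Langendorff perfusion system, and no sorting step is described. No group received Cre without floxed alleles. Whether both libraries of a group stem from different animals is not stated. Except over both ages, or over KO and control, the p-values therefore reflect only how far these libraries scatter, and that scatter may be technical. In those comparisons the spread also takes in how the KO effect differs between ages.

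Fibrillar collagens (types I, III and V among others) form the tensile fibers between heart muscle cells and are made mainly by fibroblasts. Basement membrane collagen IV forms a sheet-like network under endothelial cells and around each heart muscle cell and smooth muscle cell. Collagen VI builds beaded microfilaments that link the basement membrane to the fibers, fibril-associated collagens sit on the surface of fibers, and the multiplexins XV and XVIII belong to the basement membrane zone.

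Total counts ran from 20818285 to 53671626 per library. Carm1 stood at 39.1 to 40.5 CPM in the 4 control libraries and at 17.3 to 22.4 CPM in the 4 KO libraries, lower in each KO library than in each control library. CPM, the usual depth-scaled counts, were taken with TMM factors (trimmed mean of M-values) for library size. Summed over Kdm5d, Uty, Eif2s3y and Ddx3y, Y-linked counts were 4282 to 6765 in control at 3w and KO at 1w, and 0 to 3 in the other two groups. A KO effect at 1 age, and the change in that effect between ages, cannot be told apart from this split. A change with age in control alone or in KO alone cannot be told apart from it either. The comparison of KO with control over both ages is balanced for it, as is that of the ages over KO and control. Of the 10 heart muscle markers listed, 8 were at high counts, and Pln and Tnnc1 were listed at 0 in every library.

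Of the 44 collagens, 36 passed the filter on low counts. Col9a3, Col17a1, Col2a1, Col6a5, Col9a1, Col6a4 and Col19a1 had 2 to 36 counts over the 8 libraries and were not tested. Col10a1 had 0 counts. It lies wholly inside the span of Nt5dc1, and 1311 of 1325 protein-coding genes that lie wholly inside other genes also had 0 counts, so this 0 is no measure of Col10a1. The same holds for the listed marker and pathway genes at 0 in every library, Pln, Tnnc1, Tcf21, Timp1, Timp3 and Timp4, each of which also lies wholly inside another gene. For the same reason, levels between genes were compared as CPM per kb of the gene's principal transcript outside the spans of other genes. In bulk RNA, fewer cells of a type and less RNA per cell cannot be told apart.

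Collagens together made up 0.320 and 0.339 percent of all counts in control at 1w and 0.104 and 0.103 percent at 3w. In KO the shares were 0.558 and 0.551 percent at 1w and 0.201 and 0.199 percent at 3w. Both KO libraries lay above both control libraries at each age. In scaled values, the summed level was 2794 and 2934 CPM in control and 4530.0 and 4474 CPM in KO at 1w, 1.57 times the control mean. It was 1329 and 1353 CPM in control and 2196 and 2174 CPM in KO at 3w, 1.63 times the control mean. Basement membrane genes led this sum in control at both ages and in KO at 3w. In KO at 1w fibrillar genes were slightly ahead, at 1872 and 1840 CPM against 1844 and 1819 CPM. The basement membrane sum in KO was 1.29 and 1.33 times control at 1w and 3w. The fibrillar sum was 1.85 and 2.34 times control, and the multiplexin sum 1.76 and 3.49 times. The total at 3w was 0.468 times that at 1w in control and 0.485 times in KO.

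Few genes carried most of that sum. Per kb, the 2 chains of the most widespread collagen IV, Col4a2 and Col4a1, had the highest means over the 8 libraries (131 and 116 CPM per kb). The type III chain Col3a1 followed at 81.7, and the 2 type I chains Col1a1 and Col1a2 at 27.1 and 26.8 CPM per kb. Col6a2, Col15a1, Col6a1, Col4a5 and Col5a1 came next, between 10.7 and 24.6 CPM per kb. The order of neighbours depends on the length used: with the union of all annotated exons, Col1a2 moved from rank 5 to rank 9, while the first 4 ranks stayed as given. Near the other end of the tested genes, the anchoring fibril gene Col7a1 had a mean of 0.0774 and the cartilage chain Col11a1 a mean of 0.0704 CPM per kb. Col22a1 was the lowest tested gene, at 0.0493 CPM per kb, and the untested genes with counts lay lower still.

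**Figure D1:**
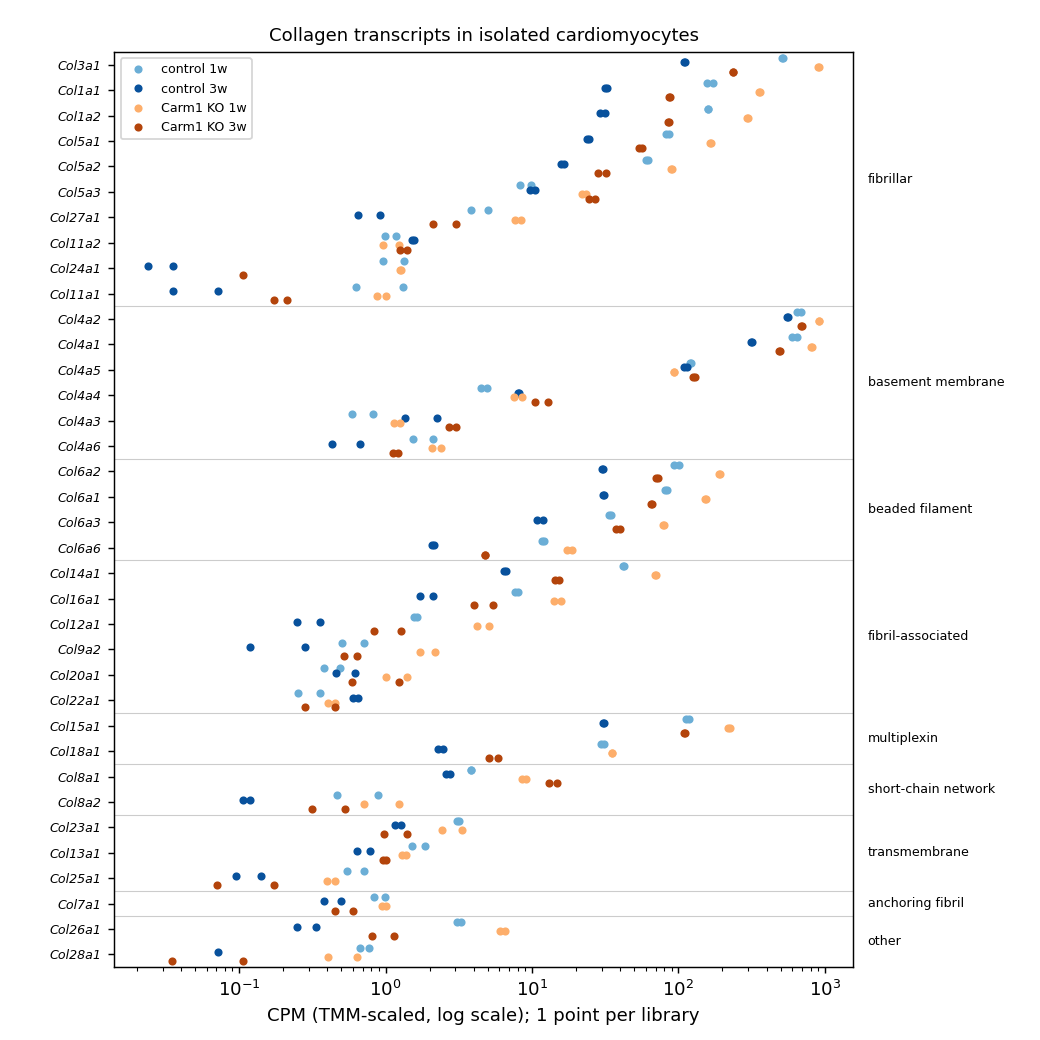
Level of each collagen that passed the count filter, in CPM on a log axis, with 1 point per library and 4 groups of 2 libraries; libraries at 0 counts are not drawn. Col4a2, Col4a1 and Col3a1 have the highest levels, and for most of the abundant genes the 3w libraries lie to the left of the 1w libraries of the same treatment.

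The make-up of the collagen transcripts differed with age and with KO. Basement membrane genes made up 49.6 and 50.5 percent of the per-kb sum in control at 1w and 73.8 and 74.1 percent in control at 3w. In KO they made up 41.4 and 41.3 percent at 1w and 60.9 and 60.7 percent at 3w. Fibrillar genes took the opposite course. Their share of the per-kb sum was 32.7 and 31.9 percent in control at 1w, 15.5 and 15.3 percent in control at 3w, 38.2 and 38.0 percent in KO at 1w and 22.0 and 22.2 percent in KO at 3w. At both ages the KO libraries thus held a larger fibrillar and a smaller basement membrane share than the controls, without overlap. The lead of basement membrane genes in KO at 1w depends on the length used. Bases inside the spans of other genes were left out, 26.8 percent of the Col4a1 and 16.1 percent of the Col4a2 transcript, against 2.53 percent for Col3a1. In CPM, with no division by length, fibrillar genes were ahead in both KO libraries of 1w. Beaded filament genes made up 6.63 to 11.5 percent of the per-kb sum and multiplexins 2.73 to 6.57 percent.

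**Figure D2:**
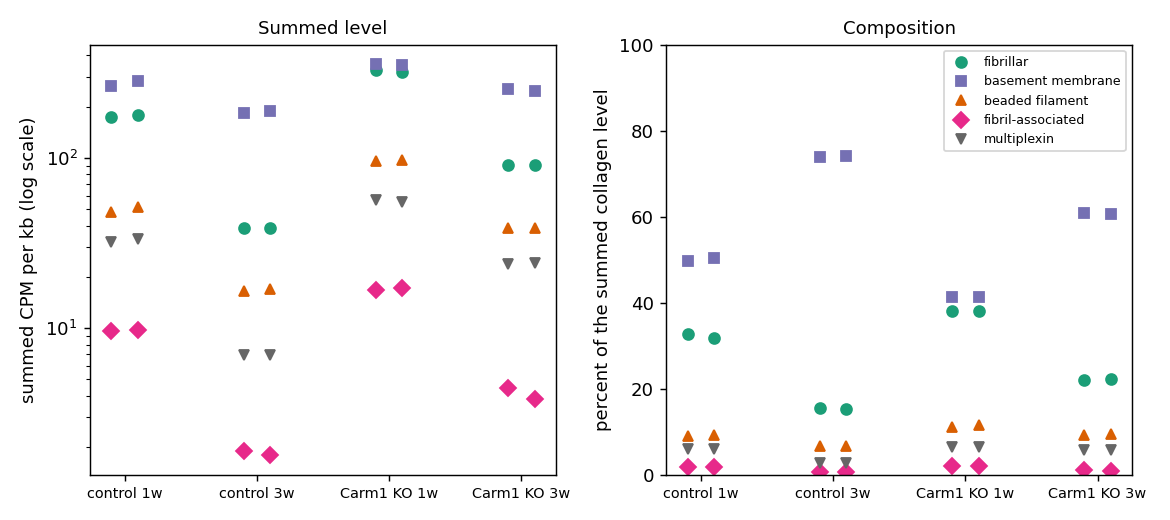
Summed level of the main collagen classes in each library (CPM per kb) and the share of each class in the per-kb sum of all collagens. By this length, basement membrane genes hold the largest share in all 8 libraries. In CPM, fibrillar genes are ahead in KO at 1w. The fibrillar share is larger in KO than in control at both ages.

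Counts were compared with edgeR's quasi-likelihood F-test with Benjamini-Hochberg adjustment over the 14665 genes tested. An adjusted p under 0.05 made a call. At 1w, 24 of the 36 tested collagens were higher in KO and 1 was lower, where 23 percent of all genes tested were higher and 20 percent lower. At 3w, 26 were higher and 0 lower, against 24.4 and 24.8 percent of all genes. Over both ages 24 were higher and 0 lower, against 16.3 and 14.5 percent. DESeq2 also called 0 lower at 3w and over both ages, and at an unadjusted p under 0.05 edgeR had 0 lower in both. With the mean of the KO effects at 1w and 3w in place of a joint fit, edgeR called 1 collagen lower over both ages. The median log2 fold change of the tested collagens was 0.72 at 1w, 1.16 at 3w and 0.87 over both ages, where the median of all genes was 0.022, 0.0061 and 0.011. A rise of at least 2-fold was called for 7 collagens at 1w (4.92 percent of all genes), for 20 at 3w (7.59 percent) and for 14 over both ages (4.29 percent).

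**Figure D3:**
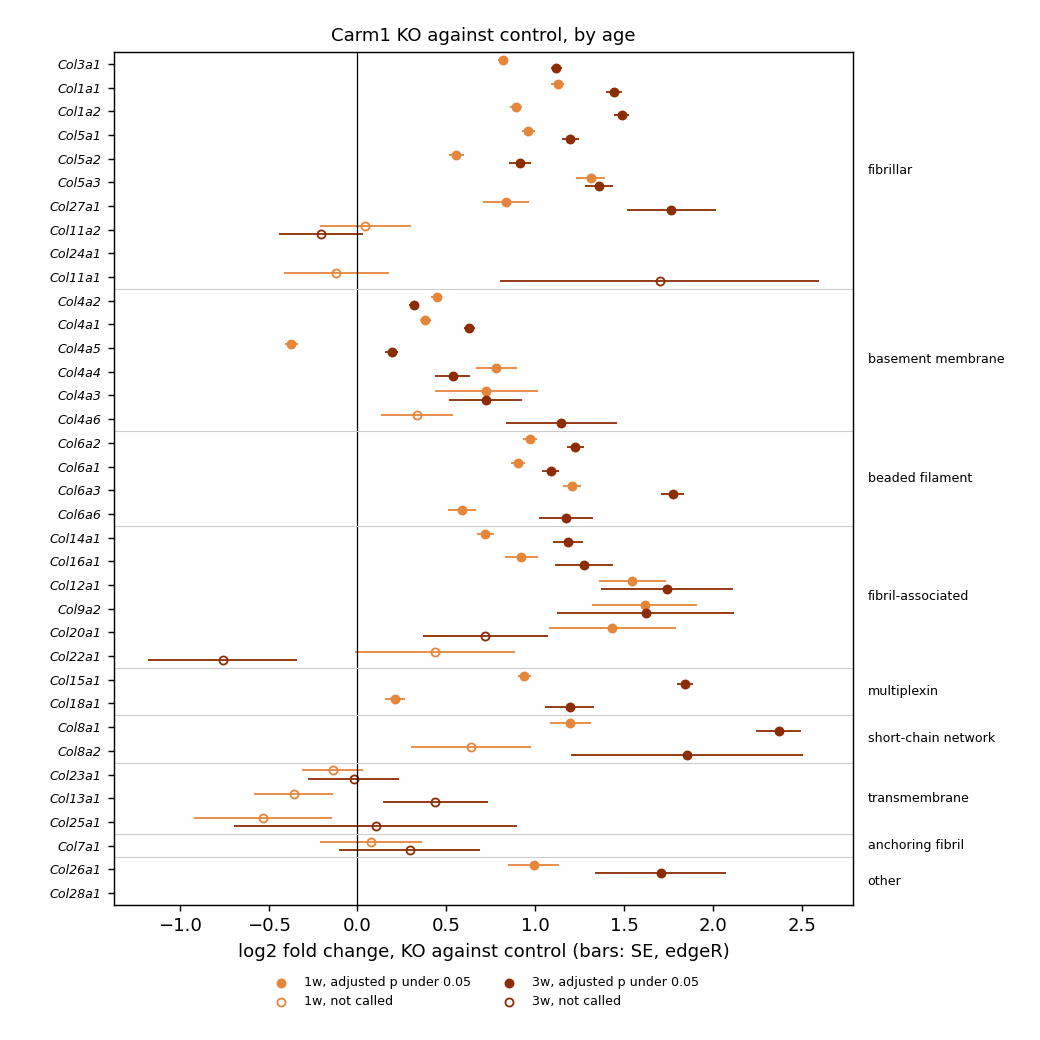
Log2 fold change of KO over control at 1w and at 3w for the tested collagens, with bars of 1 SE; filled points have an adjusted p under 0.05. Genes with at most 3 counts in a group (Col24a1 and Col28a1) are not drawn. Most points of the fibrillar, beaded filament, fibril-associated and multiplexin genes lie to the right of 0 at both ages. The largest value at 3w is 2.37, for the short-chain gene Col8a1.

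Among the fibrillar collagens, 7 of the 10 tested rose in KO at 1w, at 3w and over both ages. Col1a1 (ENSMUSG00000001506, chromosome 11, 94936224 to 94953042) encodes the chain that enters a type I molecule in 2 copies. It measured 157 and 172 CPM in control and 364 and 356 CPM in KO at 1w, then 31.4 and 32.7 CPM in control and 87.3 and 86.5 CPM in KO at 3w. KO libraries were above the controls of their age without overlap. The log2 fold change ± SE was 1.13 ± 0.035 at 1w and 1.44 ± 0.044 at 3w, and over both ages it was 1.28 ± 0.067 (adjusted p = 5.98e-06). Col1a2 (ENSMUSG00000029661, chromosome 6, 4504814 to 4541544), its partner chain, measured 161 and 159 CPM in control and 301 and 293 CPM in KO at 1w. At 3w Col1a2 measured 31.7 and 29.0 CPM in control and 84.5 and 86.4 CPM in KO. Its log2 fold change was 0.89 ± 0.034 at 1w and 1.49 ± 0.043 at 3w. Per kb, Col1a1 and Col1a2 stood close to each other in all 8 libraries, with a ratio between 0.882 and 1.10.

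Col3a1 (ENSMUSG00000026043, chromosome 1, 45311538 to 45349706) encodes the single chain of type III collagen, which forms fine fibers together with type I. It was the most abundant fibrillar gene, at 513 and 519 CPM in control and 916 and 905 CPM in KO at 1w. At 3w Col3a1 stood at 108 and 110.1 CPM in control and 238 and 237 CPM in KO. The KO values were higher at each age by 0.82 ± 0.029 at 1w and 1.12 ± 0.032 at 3w on the log2 scale, so the 3w KO libraries still lay under the 1w controls. The ratio of Col1a1 to Col3a1 per kb was 0.280 and 0.304 in control and 0.363 and 0.360 in KO at 1w. At 3w this ratio was 0.265 and 0.272 in control and 0.336 and 0.334 in KO. The ratio was higher in KO than in control at both ages; it was not tested.

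The regions around the start sites of Col1a2 and Col3a1 are shown, since both genes rose in KO and fell with age while these regions are unlike in composition. RefSeq (build GRCm38.p6) gave such windows, from 250 bases before to 50 bases after the start, for 35 of the 44 collagens. Capitals mark the CCAAT box (CCAAT or its reverse complement ATTGG), a common promoter motif.
Col1a2, chr6:4505368-4505667, plus strand: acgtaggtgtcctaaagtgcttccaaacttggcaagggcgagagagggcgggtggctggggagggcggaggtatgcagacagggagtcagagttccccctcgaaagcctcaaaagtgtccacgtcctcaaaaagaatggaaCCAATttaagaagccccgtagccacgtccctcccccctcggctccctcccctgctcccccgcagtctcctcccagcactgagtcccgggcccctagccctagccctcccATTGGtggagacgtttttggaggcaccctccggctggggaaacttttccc
Col3a1, chr1:45311288-45311587, plus strand: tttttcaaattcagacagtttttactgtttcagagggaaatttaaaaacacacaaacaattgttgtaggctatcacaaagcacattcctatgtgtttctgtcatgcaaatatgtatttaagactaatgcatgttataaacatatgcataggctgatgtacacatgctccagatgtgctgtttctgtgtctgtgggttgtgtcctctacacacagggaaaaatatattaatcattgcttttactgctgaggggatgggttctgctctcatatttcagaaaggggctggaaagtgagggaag
The Col1a2 window is 61.0 percent G and C and holds 2 CCAAT boxes, and its start lies 804 bases from the first base of the gene in GENCODE M21. The Col3a1 window is 37.7 percent G and C and holds no CCAAT or ATTGG and 1 TATAAA on either strand. A CCAAT box on either strand was found in 34.3 percent of the 35 collagen windows and in 37.4 percent of all 32851 windows. The GC box core GGGCGG (or CCGCCC) was in 62.9 percent of the collagen windows against 35.7 percent of all windows. TATAAA (or TTTATA) was in 14.3 against 13.6 percent, CAGAC (or GTCTG) in 51.4 against 49.6 percent, TGANTCA in 2.86 against 7.81 percent and CATTCC (or GGAATG) in 8.57 against 14.7 percent. Some windows share bases, such as those of Col4a1 and Col4a2. A match describes the letters alone, and motifs were searched on both strands.

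Type V chains are built into type I fibers and set their diameter. Col5a1 (ENSMUSG00000026837, chromosome 2, 27886425 to 28039514) stood at 82.7 and 86.6 CPM in control and 167 and 164 CPM in KO at 1w, then at 24.4 and 23.7 and 56.8 and 53.5 CPM at 3w. Its partner Col5a2 (ENSMUSG00000026042, chromosome 1, 45374321 to 45503282) stood at 59.9 and 61.7 CPM in control and 89.8 and 89.3 CPM in KO at 1w, then at 15.8 and 16.5 and 28.5 and 32.1 CPM at 3w. Both rose in KO at both ages, Col5a1 by 0.96 ± 0.039 and 1.20 ± 0.050 and Col5a2 by the smaller 0.56 ± 0.044 and 0.91 ± 0.062 on the log2 scale. The less common type V chain Col5a3 (ENSMUSG00000004098, chromosome 9, 20770050 to 20815067) had 8.23 and 9.84 CPM in control and 23.6 and 21.9 CPM in KO at 1w. At 3w it had 9.68 and 10.5 CPM in control and 27.1 and 24.3 CPM in KO. Here the 4 KO libraries lay above all 4 control libraries whatever the age, as they did for Col6a3 and Col8a1. How many of all genes tested do so was not counted. Over both ages Col5a3 rose by 1.34 ± 0.072 on the log2 scale (adjusted p = 6.34e-06).

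Of the remaining fibrillar genes, Col27a1 rose in KO, from 3.82 and 5.03 to 8.42 and 7.70 CPM at 1w and from 0.644 and 0.919 to 2.12 and 3.03 CPM at 3w. Col11a2, a type XI chain known from cartilage, ranged from 0.966 to 1.55 CPM over the 8 libraries, and its KO and control libraries overlapped at 1w. Its fold changes in KO were not called (0.045 ± 0.25 at 1w and -0.21 ± 0.24 at 3w). Col11a1 was at 0.0353 to 1.31 CPM and Col24a1 at 0 to 1.34 CPM, and neither was called in KO. At 3w Col24a1 had 1 and 1 counts in control and 3 and 0 counts in KO.

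Basement membrane collagens had smaller log2 fold changes, with a median of 0.41 at 1w and 0.58 at 3w against 0.83 and 1.28 for the tested fibrillar genes. Of the 6 type IV genes, 4 were higher and 1 was lower in KO at 1w, and 6 were higher at 3w, yet only 1 of these rises reached 2-fold. Col4a1 (ENSMUSG00000031502, chromosome 8, 11198423 to 11312826) and Col4a2 (ENSMUSG00000031503, chromosome 8, 11312805 to 11449287) lie head to head and supply the 3 chains of the main type IV molecule. Their RefSeq start sites are 21 bases apart, and their windows, made as for Col1a2 and Col3a1, share 78 bases. The windows are shown because they overlap while the values of the pair differed with age. Capitals again mark CCAAT or ATTGG.
Col4a1, chr8:11312777-11313076, minus strand: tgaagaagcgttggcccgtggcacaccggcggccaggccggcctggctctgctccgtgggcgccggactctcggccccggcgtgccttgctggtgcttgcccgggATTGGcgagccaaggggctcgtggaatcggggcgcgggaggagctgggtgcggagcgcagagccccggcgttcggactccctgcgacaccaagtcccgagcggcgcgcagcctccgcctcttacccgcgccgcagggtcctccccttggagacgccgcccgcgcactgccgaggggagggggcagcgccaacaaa
Col4a2, chr8:11312555-11312854, plus strand: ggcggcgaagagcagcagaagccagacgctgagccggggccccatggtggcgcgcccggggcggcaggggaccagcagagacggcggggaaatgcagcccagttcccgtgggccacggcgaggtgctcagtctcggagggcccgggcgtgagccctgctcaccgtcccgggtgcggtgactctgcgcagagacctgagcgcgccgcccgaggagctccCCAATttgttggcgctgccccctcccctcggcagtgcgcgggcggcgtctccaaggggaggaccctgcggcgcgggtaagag
The Col4a1 window is 74.0 percent G and C, that of Col4a2 73.7 percent. Each holds 1 CCAAT box.

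Col4a1 measured 596 and 649 CPM in control and 823 and 801 CPM in KO at 1w, then 313 and 319.7 and 493 and 485 CPM at 3w. Col4a2 measured 649 and 693 CPM in control and 916 and 913 CPM in KO at 1w, then 551 and 559 and 700.0 and 683 CPM at 3w. Every KO library was above the controls of its age for both genes. On the log2 scale the rise was 0.38 ± 0.031 at 1w and 0.63 ± 0.032 at 3w for Col4a1, and 0.45 ± 0.029 and 0.32 ± 0.030 for Col4a2. Between ages they parted: from 1w to 3w Col4a1 fell by 0.98 in control and Col4a2 by 0.27, on the log2 scale. The ratio of Col4a1 to Col4a2 per kb was accordingly 1.03 and 1.05 in control at 1w but 0.634 and 0.639 in control at 3w. In KO the ratio was 1.00 and 0.980 at 1w and 0.786 and 0.793 at 3w, so at 3w both KO libraries lay between the controls of both ages. Their spans overlap, and bases shared with each other or with further genes (26.8 percent of the Col4a1 and 16.1 percent of the Col4a2 transcript) were left out of the length. With whole transcripts the ratio was 0.895 and 0.913 in control at 1w but 0.554 and 0.558 in control at 3w. No test was made of the ratio.

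**Figure D4:**
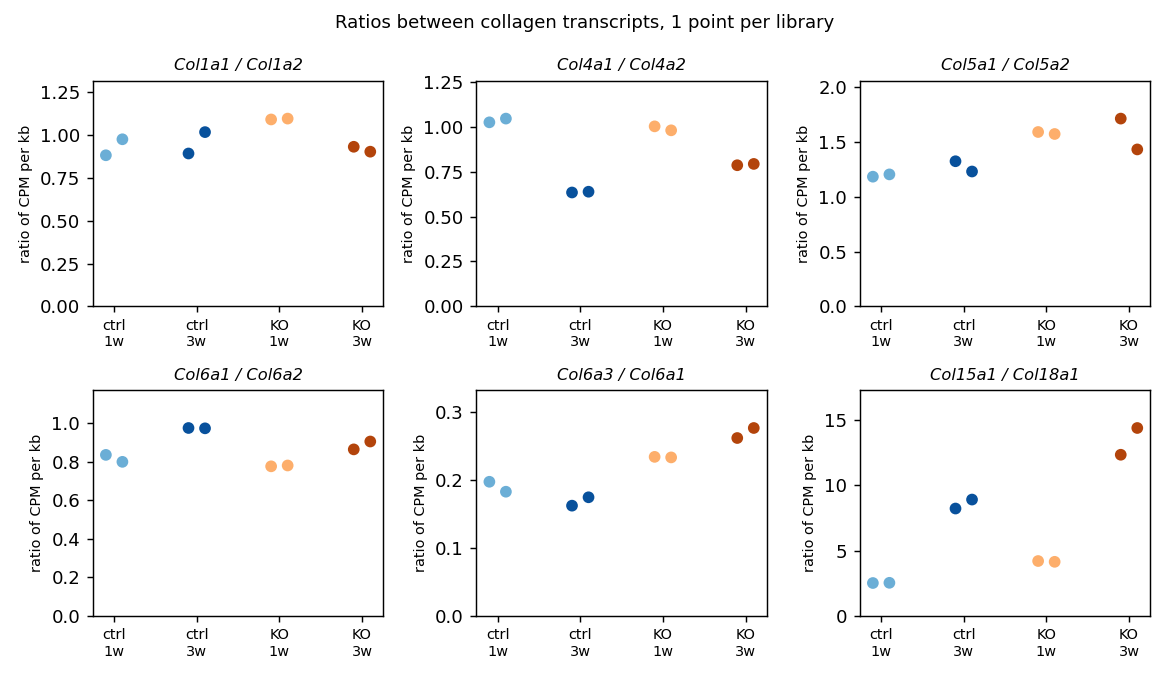
Ratios between collagen chains in each library, from CPM per kb, with 1 point per library and the 4 groups side by side. The Col4a1 to Col4a2 ratio is lowest in control at 3w, the Col15a1 to Col18a1 ratio is higher in KO than in control at both ages, and the Col1a1 to Col1a2 ratio stays between 0.882 and 1.10.

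The other type IV chains are rarer and belong to networks of selected basement membranes. Col4a5 (ENSMUSG00000031274, chromosome X, 141475385 to 141689234) was the most abundant of them and the single collagen called lower in KO, at 122 and 120.0 CPM in control and 94.0 and 92.9 CPM in KO at 1w. At 3w Col4a5 stood at 109 and 114 CPM in control and 125 and 129 CPM in KO. It thus fell at 1w (-0.37 ± 0.037, adjusted p = 6.63e-13) and rose at 3w (0.19 ± 0.037, adjusted p = 1.31e-05). Over both ages Col4a5 was not called (-0.090 ± 0.10, adjusted p = 0.547), and there its opposite effects enter the spread. Its neighbour Col4a6 was at 0.429 to 2.41 CPM and was called in KO at 3w (1.15 ± 0.31, adjusted p = 0.00131; without control library 1 of 3w, 0.80, adjusted p = 0.0822). Whether the effect on Col4a6 differed between ages was tested and missed the threshold (adjusted p = 0.0802).

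Col4a3 and Col4a4 are another head-to-head pair, with 71 bases between their spans on chromosome 1. Col4a4 stood at 4.95 and 4.45 CPM in control and 7.57 and 8.50 CPM in KO at 1w, then at 8.01 and 8.13 and 10.6 and 12.8 CPM at 3w. Col4a3 stood at 0.588 and 0.820 CPM in control and 1.26 and 1.14 CPM in KO at 1w, then at 1.36 and 2.26 and 3.04 and 2.72 CPM at 3w. Both rose in KO at both ages. The Col4a3 calls rested on few reads: without control library 1 of 3w its value at 3w was 0.34, adjusted p = 0.264, and without control library 1 of 1w its value at 1w was 0.55, adjusted p = 0.189. The call at 1w was also lost without KO library 1 (0.65, adjusted p = 0.157) or KO library 2 (0.79, adjusted p = 0.0568). DESeq2 called Col4a3 at neither age (0.73, adjusted p = 0.174 at 1w and 0.67, adjusted p = 0.118 at 3w).

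All 4 tested chains of the beaded filament collagen VI rose in KO at both ages. Col6a1 and Col6a2, chains that assemble with 1 more chain into the filament unit, were the abundant ones. Col6a1 (ENSMUSG00000001119, chromosome 10, 76708792 to 76726168) stood at 80.5 and 83.6 CPM in control and 152 and 155 CPM in KO at 1w, then at 30.6 and 30.9 and 64.7 and 65.7 CPM at 3w. Col6a2 (ENSMUSG00000020241, chromosome 10, 76595762 to 76623630) stood at 92.9 and 101 CPM in control and 189 and 192 CPM in KO at 1w, then at 30.3 and 30.6 and 72.2 and 70.0 CPM at 3w. The log2 fold changes of these neighbours on chromosome 10 were alike, 0.90 ± 0.038 and 0.97 ± 0.038 at 1w and 1.09 ± 0.046 and 1.23 ± 0.046 at 3w. Col6a3 (ENSMUSG00000048126, chromosome 1, 90765923 to 90843971), the large chain that completes the common type VI molecule, stood at 34.9 and 33.6 CPM in control and 78.2 and 79.5 CPM in KO at 1w. At 3w Col6a3 stood at 10.9 and 11.8 CPM in control and 37.2 and 39.9 CPM in KO. Its rise of 1.21 ± 0.049 and 1.77 ± 0.066 was the largest of the 4 chains at each age. The ratio of Col6a3 to Col6a1 per kb was 0.197 and 0.183 in control and 0.234 and 0.233 in KO at 1w, then 0.162 and 0.175 and 0.262 and 0.277 at 3w. Col6a6, an alternative to Col6a3, was at 2.07 to 18.8 CPM and rose by 0.59 ± 0.079 and 1.17 ± 0.15.

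Of the 6 tested fibril-associated genes, 5 rose at 1w and 4 at 3w. Col14a1 (ENSMUSG00000022371, chromosome 15, 55307750 to 55520803), whose protein binds the surface of type I fibers, was the most abundant, at 42.0 and 42.5 CPM in control and 69.2 and 70.0 CPM in KO at 1w. At 3w Col14a1 stood at 6.63 and 6.43 CPM in control and 15.4 and 14.4 CPM in KO, above control without overlap. The log2 fold change was 0.72 ± 0.048 at 1w and 1.19 ± 0.085 at 3w. Col12a1, a related fiber-surface collagen, was low but rose by more: it had 1.64 and 1.56 CPM in control and 5.08 and 4.18 CPM in KO at 1w, then 0.358 and 0.247 and 1.27 and 0.837 CPM at 3w (1.55 ± 0.19 and 1.74 ± 0.37). Col16a1 was at 1.73 to 15.7 CPM and rose by 0.92 ± 0.10 and 1.28 ± 0.16. Col9a2, a type IX chain known from cartilage, was at 0.119 to 2.17 CPM and was called at both ages. At 3w it rested on control library 1 (1.02, adjusted p = 0.133 without it). Col20a1 was at 0.378 to 1.39 CPM and was called at 1w (1.43 ± 0.36) but not at 3w (0.72 ± 0.35), and the difference between ages was not called (adjusted p = 0.278). Col22a1, at 0.252 to 0.644 CPM, was not called in KO.

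Both multiplexins rose in KO, and more at 3w than at 1w. Col15a1 (ENSMUSG00000028339, chromosome 4, 47208161 to 47313167), a collagen of the zone between basement membrane and fibers, stood at 113 and 119 CPM in control and 225 and 219 CPM in KO at 1w. At 3w Col15a1 stood at 30.5 and 31.0 CPM in control and 109 and 112 CPM in KO, so that the 3w KO libraries came close to the 1w controls. Its log2 fold change in KO was 0.94 ± 0.036 at 1w and 1.84 ± 0.043 at 3w. Col18a1 (ENSMUSG00000001435, chromosome 10, 77052178 to 77166548), the source of the protein fragment endostatin, stood at 29.8 and 31.0 CPM in control and 35.5 and 35.1 CPM in KO at 1w. At 3w Col18a1 stood at 2.46 and 2.30 CPM in control and 5.83 and 5.12 CPM in KO. Its rise in KO was small at 1w (0.21 ± 0.058, adjusted p = 0.00192) and larger at 3w (1.19 ± 0.14, adjusted p = 1.88e-11). DESeq2 did not call Col18a1 at 1w (0.20, adjusted p = 0.109). Over both ages the Col18a1 call was close to the threshold (0.57 ± 0.18, adjusted p = 0.0411) and was lost without any 1 of 5 libraries (control library 1 of 1w, either control library of 3w or either KO library of 3w), at values of 0.45 to 0.63. With the replicate number as a block, its adjusted p was 0.0603. The ratio of Col15a1 to Col18a1 per kb was 2.51 and 2.53 in control and 4.20 and 4.14 in KO at 1w, then 8.23 and 8.92 and 12.4 and 14.4 at 3w.

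The largest log2 fold change in KO at 3w among the tested collagens was that of the short-chain collagen Col8a1 (ENSMUSG00000068196, chromosome 16, 57624258 to 57754737), a network collagen known from vessel walls. Col8a1 stood at 3.86 and 3.83 CPM in control and 9.05 and 8.55 CPM in KO at 1w, then at 2.77 and 2.58 and 14.7 and 13.1 CPM at 3w. The KO libraries of 3w were the highest of all 8. The log2 fold change was 1.20 ± 0.12 at 1w and 2.37 ± 0.12 at 3w (adjusted p = 6.13e-14 and 4.14e-27). Its partner Col8a2 was at 0.106 to 1.24 CPM and was called at 3w (1.85 ± 0.65), a call that was lost without KO library 1 of 3w (1.42, adjusted p = 0.148). The difference between the ages was not called for Col8a2 (adjusted p = 0.175).

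Of the 3 tested transmembrane collagens, edgeR and DESeq2 each called 0 in KO at either age and over both, and 0 had an unadjusted p under 0.05 in edgeR. Col23a1 stood at 0.976 to 3.31 CPM with log2 fold changes of -0.14 ± 0.17 and -0.022 ± 0.25, and Col13a1 stood at 0.636 to 1.86 CPM with values of -0.36 ± 0.22 and 0.44 ± 0.29. Col25a1 stood at 0.0706 to 0.714 CPM. The anchoring fibril gene Col7a1, at 0.381 to 1.01 CPM, was not called either (0.074 ± 0.29 and 0.29 ± 0.40). Of the 2 genes outside these classes, Col26a1 rose at both ages, from 3.06 and 3.28 to 6.58 and 6.09 CPM at 1w and from 0.334 and 0.247 to 0.812 and 1.15 CPM at 3w. Col28a1 had 0 to 3 counts in each 3w library and 16 to 28 in each 1w library, and was not called in KO.

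With age, most collagens fell. In control alone or in KO alone, an age change cannot be told apart from the split in Y-linked counts, which runs in opposite directions there. The comparison over KO and control is balanced for that split. In control, 30 of the 36 tested were lower and 4 higher at 3w than at 1w, where 36 percent of all genes tested were lower and 34.9 percent higher. A fall of at least 2-fold was called for 26 (17.4 percent of all genes). In KO, 27 were lower and 5 higher, against 34.6 and 33.2 percent of all genes, and 23 fell at least 2-fold (14.9 percent). Over KO and control, 28 were lower and 2 higher, against 34.3 and 32.3 percent. The median log2 fold change of the tested collagens was -1.78 in control and -1.33 in KO. Without a scaling factor the median of all genes moved by -0.58 in control and by -0.43 in KO, so the age changes are relative to the TMM scale. Cell type markers moved in the same libraries. In control, 10 of 10 endothelial, 9 of 9 smooth muscle and pericyte and 8 of 11 tested fibroblast markers were lower at 3w, 2 fibroblast markers (Fbln1 and Gsn, named after their values were seen) were higher, and all 8 tested heart muscle markers were higher. In KO, 10 endothelial, 7 smooth muscle and pericyte and 9 fibroblast markers were lower, 1 fibroblast marker (Gsn) was higher, and again all 8 heart muscle markers were higher. The summed level of the heart muscle markers was 39386 and 40208 CPM in control at 1w and 76182 and 80249 CPM at 3w, and in KO 37507 and 37209 CPM at 1w and 62490.3 and 61763 CPM at 3w. The part of these markers in the fall of the collagens with age was not tested.

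**Figure D5:**
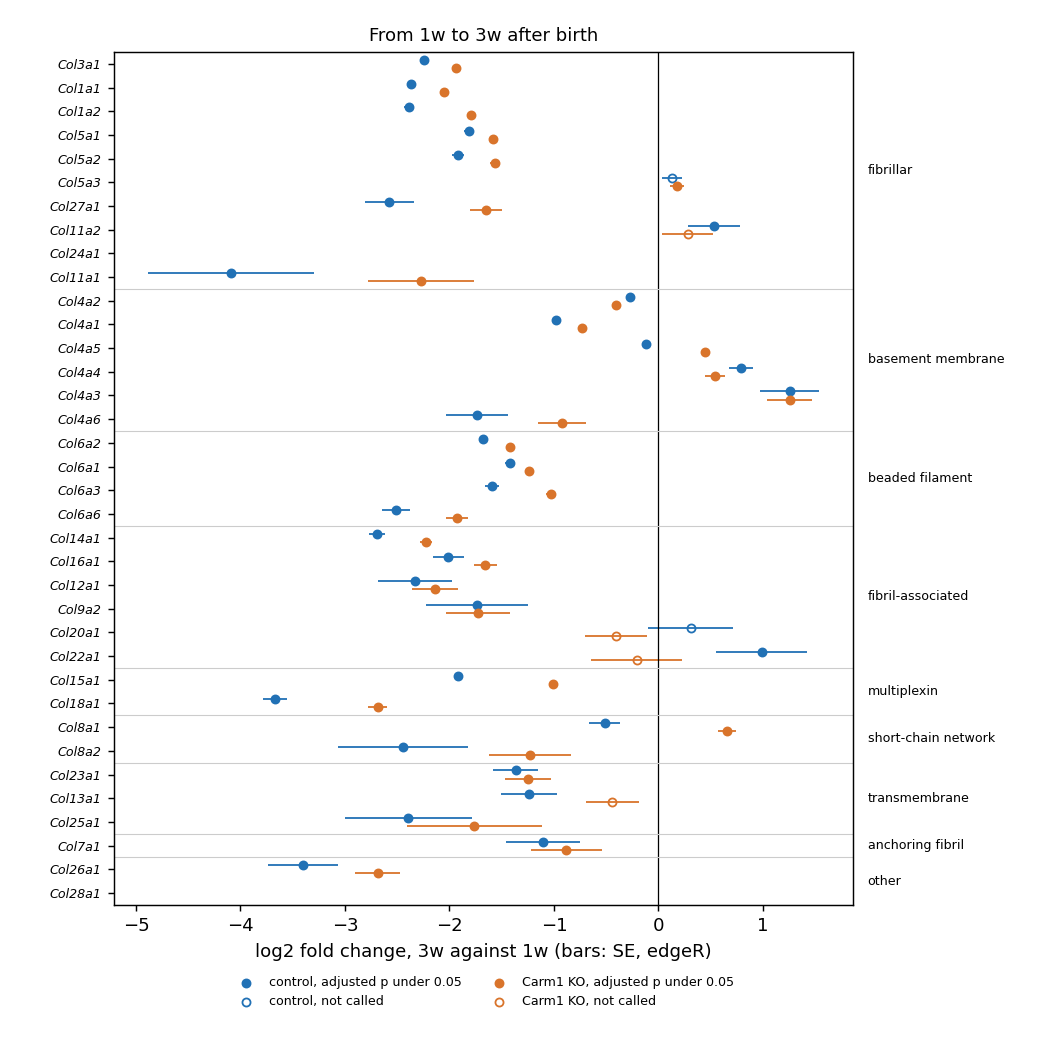
Log2 fold change of 3w over 1w in control and in KO for the tested collagens, with bars of 1 SE; filled points have an adjusted p under 0.05, and Col24a1 and Col28a1, with at most 3 counts in a group, are not drawn. Most points lie to the left of 0; Col4a3 and Col4a4 lie to the right in both, and Col8a1 lies to the left in control and to the right in KO.

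Fibrillar genes other than Col5a3 and Col11a2 fell in control by 1.82 to 2.58 on the log2 scale among those with a mean of at least 1 CPM, Col5a1 the least and Col27a1 the most. In KO these same genes (Col1a1, Col1a2, Col3a1, Col5a1, Col5a2 and Col27a1) fell by 1.56 to 2.05. Among the type IV genes, by contrast, Col4a2 changed by -0.27 ± 0.030 in control and -0.40 ± 0.029 in KO, and Col4a1 by -0.98 ± 0.032 and -0.73 ± 0.031. Col4a3 rose by 1.26 ± 0.28 in control and 1.26 ± 0.22 in KO, and Col4a4 by 0.79 ± 0.12 and 0.54 ± 0.095; for Col4a4 these calls were lost without a scaling factor (0.21 and 0.12). Col4a5 changed by -0.12 ± 0.037 in control and rose by 0.44 ± 0.037 in KO; the former was lost without control library 1 of 3w (-0.074) and the latter without a scaling factor (0.016). Col18a1 had the steepest fall of the collagens above 10 CPM on average, -3.67 ± 0.12 in control and -2.69 ± 0.091 in KO. Col15a1 changed by -1.92 ± 0.043 in control and -1.01 ± 0.036 in KO.

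Besides Col4a5, Col8a1 was called in opposite directions with age: it fell in control (-0.51 ± 0.15, adjusted p = 0.00146) and rose in KO (0.66 ± 0.088, adjusted p = 1.45e-09). For both genes, these opposite calls cannot be told apart from the split in Y-linked counts. Col5a3 differed little with age, 0.13 ± 0.094 in control and 0.18 ± 0.068 in KO. The latter was called, turned to -0.25 without a scaling factor and was lost without KO library 2 of 1w (0.12) or KO library 1 of 3w (0.12). Col11a2 (0.53 ± 0.25) and Col22a1 (0.99 ± 0.43) were called higher at 3w in control near the threshold, with adjusted p of 0.0475 and 0.0307. Without a scaling factor Col11a2 was at -0.042. The Col11a2 call was lost without any 1 of 5 libraries (each of the 4 controls and KO library 2 of 1w), at 0.39 to 0.64, and the Col22a1 call without any 1 of 3 (either control library of 1w or control library 1 of 3w), at 0.81 to 1.31. Col24a1 had 32 and 35 counts in control at 1w but 1 and 1 at 3w, and in KO 56 and 48 at 1w but 3 and 0 at 3w.

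The KO effect was tested for a difference between the ages, which cannot be told apart from the split in Y-linked counts. It was larger at 3w than at 1w for 16 of the 36 tested collagens and smaller for 1, where 17.6 percent of all genes had a larger and 17.9 percent a smaller value. The difference in log2 fold change was 1.17 ± 0.17 for Col8a1, 0.98 ± 0.15 for Col18a1 and 0.90 ± 0.056 for Col15a1. It was 0.59 ± 0.055 for Col1a2 and 0.32 ± 0.056 for Col1a1 (adjusted p = 5.6e-14 and 5.38e-06), the partner chains of type I. Col4a5, which fell in KO at 1w and rose at 3w, differed by 0.56 ± 0.053 (adjusted p = 6.85e-14). Col4a2 was the gene with a smaller value at 3w (-0.13 ± 0.042, adjusted p = 0.012). Its call was lost without control library 1 of 1w (-0.083), KO library 1 of 1w (-0.13) or KO library 2 of 3w (-0.11), and without a scaling factor the value was 0.022. By class, 6 of 10 tested fibrillar, 4 of 4 beaded filament and 2 of 2 multiplexin genes had a larger value at 3w. DESeq2 called 13 collagens with a larger value at 3w, among them 5 fibrillar, 2 beaded filament and 2 multiplexin genes, and it did not call Col6a1 (adjusted p = 0.095) or Col6a6 (adjusted p = 0.0548).

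The genes that make, export, trim and cross-link collagen were counted from the same fits. The shares of all genes to set beside these counts are 23 percent higher and 20 percent lower at 1w, and 24.4 percent higher and 24.8 percent lower at 3w. Of 15 enzymes and cofactors that modify proline and lysine in new chains, 14 were higher in KO at 1w, and 7 were higher and 4 lower at 3w. Over both ages the prolyl 3-hydroxylase family member P3h3 rose by 0.74 ± 0.10, the prolyl 4-hydroxylase subunit P4ha1 by 0.43 ± 0.080, and the lysyl hydroxylases Plod3 and Plod2 by 0.26 ± 0.063 and 0.26 ± 0.061 on the log2 scale. Of 8 chaperone and export genes, 3 were higher at 1w, and 3 were higher and 3 lower at 3w. Over both ages Creb3l1, a transcription factor of secretory genes, rose by 0.79 ± 0.11, and the collagen chaperone Serpinh1 by 0.15 ± 0.051. The Serpinh1 call was close to the threshold (adjusted p = 0.0486). The chaperone counts at both ages, and the lower calls among modifying genes at 3w, are not far from the shares of all genes.

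Of 8 genes for procollagen cleavage, 5 were higher at 1w, and 5 higher and 1 lower at 3w. The enhancer of C-propeptide cleavage Pcolce rose over both ages by 0.99 ± 0.045, the N-propeptide protease Adamts2 by 0.77 ± 0.077, Pcolce2 by 0.34 ± 0.11 and the C-propeptide protease Bmp1 by 0.34 ± 0.047. The Pcolce2 call was close to the threshold (adjusted p = 0.0418). Of 5 cross-linking enzymes of the lysyl oxidase family, 4 rose at 1w and 5 at 3w. Loxl1 stood at 16.5 and 19.8 CPM in control and 39.2 and 39.4 CPM in KO at 1w, then at 5.70 and 5.41 and 13.3 and 13.7 CPM at 3w. Over both ages Loxl1 rose by 1.19 ± 0.071, Loxl2 by 0.85 ± 0.060 and Lox by 0.78 ± 0.093. Of the proteoglycans that bind fibers, 5 of 6 listed were tested. All 5 rose at 1w, and 4 rose and 1 (Fmod, named after its values were seen) fell at 3w. Lum rose over both ages by 1.14 ± 0.17, Bgn by 1.04 ± 0.056 and Dcn by 0.78 ± 0.054.

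Of 9 tested collagen receptors and uptake genes (10 listed), 4 were higher and 2 lower at 1w, the latter close to the share of all genes, and 5 were higher at 3w. Mrc2, an endocytic collagen receptor, rose over both ages by 1.16 ± 0.10, and the collagen-binding kinases Ddr2 and Ddr1 by 0.86 ± 0.092 and 0.20 ± 0.050. Of 12 collagen-degrading enzymes and their inhibitors, 7 were tested. At 1w 4 were higher and 2 lower, and at 3w 6 were higher. The gelatinase Mmp2 rose over both ages by 1.08 ± 0.11, the membrane collagenase Mmp14 by 0.99 ± 0.15 and the inhibitor Timp2 by 0.27 ± 0.066. The membrane metalloproteinase Mmp15 fell, close to the threshold (-0.16 ± 0.052, adjusted p = 0.0416). Without a scaling factor the median of all genes moved by 0.17 in KO over both ages, more than the size of the Mmp15 value. The inhibitors Timp1, Timp3 and Timp4 were among the nested genes listed at 0, which is no measure of their level.

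Markers of the cells that make collagen moved in the same libraries. Their counts stand beside the same shares of all genes, 23 percent higher and 20 percent lower at 1w and 24.4 and 24.8 percent at 3w. Of 12 fibroblast markers other than collagens, 11 were tested, and the nested gene Tcf21 was listed at 0; Dcn and Lum are also among the proteoglycans above. At 1w 11 were higher in KO, and at 3w 10 were higher and 1 (Fbln1, named after its values were seen) was lower. Their summed level was 697 and 687 CPM in control and 1096 and 1086 CPM in KO at 1w, then 356 and 367 and 559 and 573 CPM at 3w. In KO the sum was 1.58 times control at 1w and 1.57 times at 3w, where the fibrillar collagens reached 1.85 and 2.34 times. The ratio of the fibrillar sum to this marker sum was 1.42 and 1.48 in control and 1.71 and 1.69 in KO at 1w, then 0.628 and 0.613 and 0.941 and 0.915 at 3w. The ratio of these sums was thus higher in KO at both ages and lower at 3w than at 1w. Gene by gene, the median log2 fold change at 1w was 0.82 for the tested fibroblast markers and 0.83 for the tested fibrillar genes. At 3w these medians were 0.87 and 1.28. Gsn, which rose with age while most of the other markers fell, was the largest part of the marker sum at 3w. There its mean was 111 of 362 CPM for controls and 202 of 566 CPM for KO.

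Of 10 endothelial markers, 9 were higher and 1 lower in KO at 1w, and 9 higher at 3w, with sums of 862 and 848 CPM in control and 966 and 973 CPM in KO at 1w. At 3w the endothelial sums were 286 and 279 CPM in control and 361 and 368 CPM in KO. The ratio of the basement membrane collagen sum to this sum was 1.59 to 1.91 at 1w and 3.44 to 3.69 at 3w. Of 9 smooth muscle and pericyte markers, 6 were higher and 2 lower at 1w and 9 higher at 3w, with sums of 1454 and 1407 CPM in control and 2049.5 and 2071 CPM in KO at 1w, then 845 and 811 and 1661 and 1663 CPM at 3w. All 9 macrophage markers were higher in KO at both ages. Of 8 epicardial markers, 7 were higher in KO at 1w and 7 lower at 3w. Of the 8 tested heart muscle markers, 1 was higher and 6 lower at 1w, and 7 lower at 3w. The part of these cell types in the collagen values was not tested.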

How the data were processed

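The submitters' processing notes name FastQC and MultiQC for read quality, HISAT2 for alignment to mm10, featureCounts for counting and DESeq2 for testing, all run by the authors; no version, strand setting or annotation is given in the sources used here. The deposited values are whole-number raw counts per gene. Per the labels' protocols, libraries were made from total RNA with SMART and Nextera XT kits. GENCODE M21 (GRCm38) named 54723 of 54752 genes. Protein-coding genes wholly inside other genes' spans had 0 counts in 1311 of 1325 cases, against 3344 of 11812 without overlap, so genes that overlap others may be undercounted, and reads of antisense genes cannot be told apart. Whether intron reads were counted is not stated.

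The members and gene lists were chosen with earlier results of these data known. filterByExpr (minimum count 10, total 15) kept 14665 genes, which were scaled by TMM. The test was edgeR's robust quasi-likelihood F-test (edgeR 4.0.16, R 4.3.3) in 1 fit of the 4 groups, or in a fit with additive terms for age and KO for values over both ages or over KO and control. Benjamini-Hochberg adjustment ran over every gene tested in a comparison. The procedure was run on counts simulated with the spread fitted to these libraries, which cannot show how it performs where animals differ more than that. Collagens with a mean of at least 1 CPM are named with values, other tested ones with their range, and of each pathway list up to 4 called genes with the largest change over both ages and a mean of at least 5 CPM. Alternatives were other scalings, no filter, DESeq2 1.42.0, a replicate block, other fits and leaving out each library. Values of single genes were compared under them for collagens only.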

Additional observations from a re-analysis of the deposited data

Results flagged for a closer look

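The change in KO differed between 1w and 3w, by the test of that difference (edgeR, Benjamini-Hochberg over all genes), for 17 of the 36 tested collagens. It was larger at 3w for 16 and smaller for 1, where 17.6 percent of all genes had a larger and 17.9 percent a smaller value. All values are the log2 fold change of KO at 3w less that at 1w, and none can be told apart from the split in Y-linked counts. Among fibrillar genes the difference was 0.32 for Col1a1, 0.59 for Col1a2, 0.30 for Col3a1, 0.24 for Col5a1, 0.36 for Col5a2 and 0.93 for Col27a1. The Col27a1 call was lost without control library 2 of 1w (0.68), control library 1 of 3w (0.66) or KO library 2 of 3w (0.65), and under DESeq2 (0.89, adjusted p = 0.0735). Among beaded filament genes it was 0.18 for Col6a1, 0.26 for Col6a2, 0.56 for Col6a3 and 0.58 for Col6a6. The Col6a1 call was lost without control library 2 of 1w (0.15), KO library 1 of 1w (0.16) or KO library 2 of 3w (0.17), under DESeq2 (0.18, adjusted p = 0.095) and without a filter on low counts (0.14, adjusted p = 0.0765). The Col6a6 call was lost under DESeq2 (adjusted p = 0.0548). For the multiplexins it was 0.90 for Col15a1 and 0.98 for Col18a1, for Col14a1 it was 0.47 and for Col8a1 1.17. Among type IV genes it was 0.25 for Col4a1, 0.56 for Col4a5 and -0.13 for Col4a2.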

How the results depend on the processing

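The counts of collagens higher in KO at 1w, at 3w and over both ages, and of those lower with age, stayed within 1.5 times under every alternative run. Without a scaling factor, 1 collagen was higher at 3w than at 1w in control, 2 in KO and 1 over both, 0 had a smaller KO effect at 3w, and 3 values changed sign: Col4a2 in the difference of KO effects (0.022), Col5a3 with age in KO (-0.25) and Col11a2 with age in control (-0.042). That setting moved the median of all genes by 0.099 and 0.25 in KO at 1w and 3w. DESeq2 and the fit without a filter each had 2 collagens higher with age in control. With the mean of both simple contrasts in place of the additive fit, 1 collagen was lower in KO over both ages and 5 were higher with age over KO and control. Leaving out 1 library gave 2 to 4 collagens higher with age in control (2 without control library 1 of 1w or of 3w), 0 to 1 with a smaller KO effect at 3w, and 2 to 4 higher with age over KO and control (4 without KO library 2 of 3w). Without 1 library, 3 to 11 of 188 called values were lost. Those over both ages for Col4a3 (0.53 to 0.68) were lost without library 1 of any group, and those for Col20a1 (0.91 to 1.04) without any 1 of 5 libraries. With DESeq2 14 were lost: Col18a1 in KO at 1w, Col4a3 in KO at both ages, Col6a1, Col6a6 and Col27a1 in the difference of KO effects, Col4a5, Col7a1, Col11a2 and Col22a1 with age in control, and Col5a3, Col7a1, Col8a2 and Col25a1 with age in KO. Without a filter 5 were lost: Col18a1 in KO over both ages, Col6a1 in the difference, Col11a2 and Col22a1 with age in control and Col5a3 with age in KO.

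Same-numbered libraries did not deviate together (correlations of -0.022 to 0.008), so the numbers were not taken as pairs. A replicate block changed 2 of 188 calls, Col11a2 with age in control (adjusted p = 0.0514) and Col18a1 in KO over both ages (adjusted p = 0.0603).

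For all genes, DESeq2 called 1808 higher in KO at 1w and 2364 at 3w, against 3373 and 3577 in edgeR, and 1532 larger and 1618 smaller KO effects at 3w, against 2587 and 2628. Without a scaling factor, 1710 were lower in KO at 1w, 6909 higher and 1303 lower at 3w, 4602 higher and 651 lower over both ages, and 1917 higher and 9645 lower with age in control, 2041 and 8969 in KO, and 1716 and 9329 over both; 3999 KO effects were larger and 1410 smaller at 3w. The mean of simple contrasts called 4032 higher and 3714 lower in KO over both ages. Levels per kb of most genes moved with the length or library size used.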
